A study of Mus musculus with 9 samples.

Results

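The enzymes described here remove superoxide and peroxides: catalase (*Cat*), the superoxide dismutases *Sod1* and *Sod2*, the glutathione peroxidases *Gpx1* and *Gpx4*, the peroxiredoxins *Prdx1*, *Prdx3*, *Prdx5* and *Prdx6*, and the membrane oxidoreductase *Aifm2*. They were chosen by name, as the rows of the gene table whose Ensembl identifier carries one of these 10 symbols, and all 10 were found among the 54432 genes of the table. The libraries were made from RAW264.7, a line of macrophage-like mouse cells, with 3 libraries for each of 3 conditions. Control cells (CTRL) were left untreated, and the other cells received VLDL-sized (VLDLsep) or chylomicron-sized (CHYLsep) emulsion particles at 1 mM for 6 hours. Both kinds of particle were made from sunflower oil with sodium caseinate as emulsifier, and the control cells received no emulsifier, so oil and emulsifier cannot be told apart. According to the methods, samples of a condition from an experiment were pooled, so that a library stands for a pool of cultures of a single cell line.

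Superoxide arises when an electron leaks to oxygen in mitochondria or is passed to oxygen by the NADPH oxidase of phagocytes. Superoxide dismutases turn it into hydrogen peroxide, which catalase splits into water and oxygen in peroxisomes and which peroxiredoxins and glutathione peroxidases reduce with electrons from thioredoxin or glutathione. *Gpx4* and *Aifm2* protect membranes: the first reduces lipid hydroperoxides, and the second keeps coenzyme Q in its reduced, radical-trapping form.

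All 8 macrophage markers examined were detected, with *Lyz2* at 2180 to 2490 and *Csf1r* at 1220 to 1390 cpm (the count relative to the TMM-normalized library size) over the 9 libraries. The 9 markers of other cell types added up to at most 1.07 cpm in any library, with *Epcam*, *Krt18* and *Alb* among those at 0. Together the macrophage markers lay between 5830 and 5970 cpm in control cells, between 5380 and 5600 cpm after VLDL-sized and between 5500 and 5700 cpm after CHYL-sized particles. By the test described below, 4 of the 8 fell and 1 rose after VLDL-sized particles and 2 fell after CHYL-sized particles. Of all genes 35.6% and 25.7% changed, 17.9% and 13% as lower. What the lower summed level of the markers contributes to the values below was not tested. The total count per library was 22393893 to 22856792, and every enzyme passed the filter of more than 10 counts in at least 3 libraries, with 301 counts (*Aifm2*) to 93225 counts (*Prdx1*) in a library. In each group replicate 3 stood apart from replicates 1 and 2, with a chi-square per gene of 11.9 to 15.1 against 3.38 to 5.02. The values are relative to all RNA of a library, so fewer cells of a kind and less RNA per cell cannot be told apart.

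Compared with control, 6 of the 10 enzymes changed after VLDL-sized emulsion particles: *Cat*, *Prdx1*, *Sod1*, *Prdx3* and *Prdx6* rose and *Gpx1* fell (limma-voom, Benjamini-Hochberg adjusted p under 0.05 over 12637 genes). Of all genes tested, 35.6% passed in this comparison, 17.8% as higher and 17.9% as lower. After CHYL-sized particles *Cat*, *Prdx1*, *Sod1*, *Prdx3* and *Prdx6* rose and *Gpx1* fell, where 25.7% of all genes passed, 12.7% as higher and 13% as lower. The comparisons share the control libraries. The libraries of treated and control cells did not overlap for 7 of the 10 enzymes with either particle, against 47.4% of all genes for VLDL-sized and 41.7% for CHYL-sized particles. The median log2 fold change of the enzymes was 0.31 after VLDL-sized and 0.25 after CHYL-sized particles, beside -0.00028 and 0.0013 for all genes. *Cat* and *Prdx1* stood well above the rest, and the other called enzymes had log2 fold changes between -0.50 and 0.48.

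**Figure D1:**
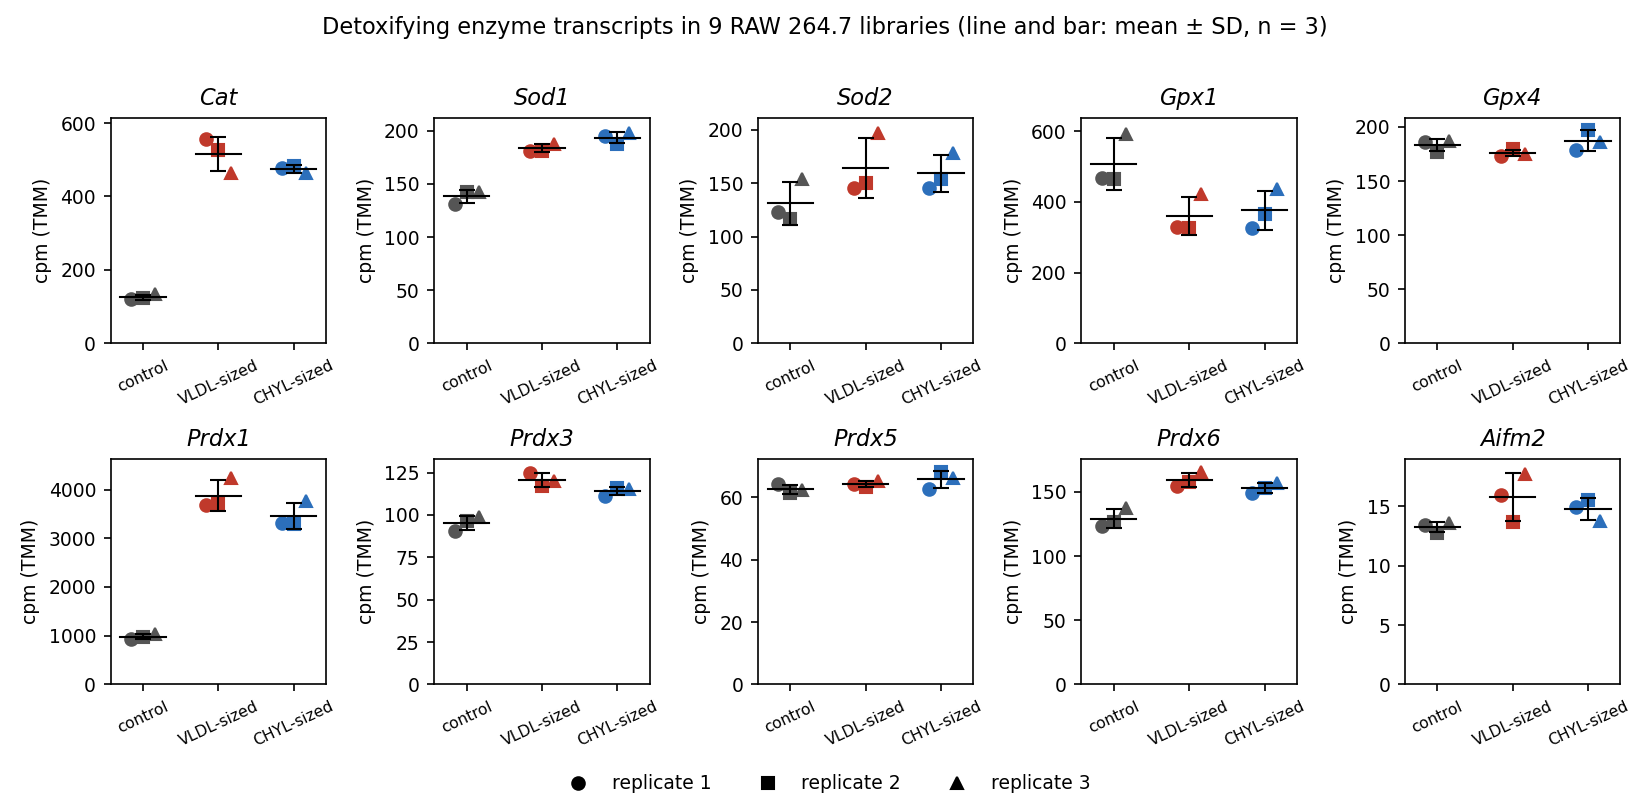
Level of each enzyme transcript in the 9 libraries, in TMM-normalized cpm from 0; points are libraries, marker shapes replicate numbers, and the line and bar the mean and SD of 3 libraries. *Cat* (463 to 556 cpm) and *Prdx1* (3297 to 4242 cpm) lie far above control in all 6 treated libraries, *Gpx1* is lower in treated cells, and *Sod2*, *Gpx1*, *Prdx1* and *Prdx6* are highest in replicate 3 of every group.

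*Cat* (ENSMUSG00000027187, chromosome 2 from 103453849 to 103485160, minus strand, GRCm38) encodes the haem enzyme of peroxisomes. Its level was 119.8, 124 and 133 cpm in the control libraries, 556, 528 and 465 cpm after VLDL-sized particles and 479, 482 and 463 cpm after CHYL-sized particles. The lowest treated library, at 463 cpm, thus lay far above the highest control library, at 133 cpm, while the treated groups overlapped each other. The log2 fold change against control was 2.04 for VLDL-sized particles (standard error 0.068, adjusted p = 1.9e-08) and 1.92 for CHYL-sized particles (standard error 0.068, adjusted p = 3.6e-08). As a fold this was 4.11 (95% interval 3.70 to 4.56) and 3.79 (3.41 to 4.204). Of the 12637 genes tested, 83 had a larger log2 fold change after VLDL-sized particles and 73 after CHYL-sized particles.

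*Prdx1* (ENSMUSG00000028691, chromosome 4 from 116685544 to 116700822, plus strand) encodes an abundant cytosolic peroxiredoxin that is reduced by thioredoxin. It was measured at 926, 979.9 and 1041 cpm in control cells, at 3677, 3707 and 4242 cpm after VLDL-sized particles and at 3323, 3297 and 3774 cpm after CHYL-sized particles. No treated library came near the control range, and the treated groups overlapped through replicate 3 of the CHYL-sized group. The log2 fold change was 1.98 (standard error 0.075, adjusted p = 3.9e-08) for VLDL-sized and 1.82 (standard error 0.075, adjusted p = 9.0e-08) for CHYL-sized particles, or a fold of 3.94 (95% interval 3.52 to 4.42) and 3.53 (3.14 to 3.95). Over all libraries, 0.15% of the genes tested had a higher mean cpm than *Prdx1*. The transcript took 0.102% of all counts in control, 0.378% after VLDL-sized and 0.341% after CHYL-sized particles.

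*Prdx2* encodes the other typical cytosolic peroxiredoxin and is a close relative of *Prdx1* in sequence, so some reads could be split between them. Its level was 151, 150.0 and 148 cpm in untreated cells, 157, 154.5 and 162 cpm after VLDL-sized and 148, 155 and 162 cpm after CHYL-sized particles, and neither comparison passed the test (log2 fold change 0.08, adjusted p = 0.234, after VLDL-sized particles). Per kilobase of transcript, the level of *Prdx1* was 5.97, 6.37 and 6.86 times that of *Prdx2* in the control libraries. The ratio was 22.9, 23.4 and 25.5 after VLDL-sized particles and 21.9, 20.7 and 22.8 after CHYL-sized particles, so all treated libraries lay above all control libraries in this ratio.

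**Figure D2:**
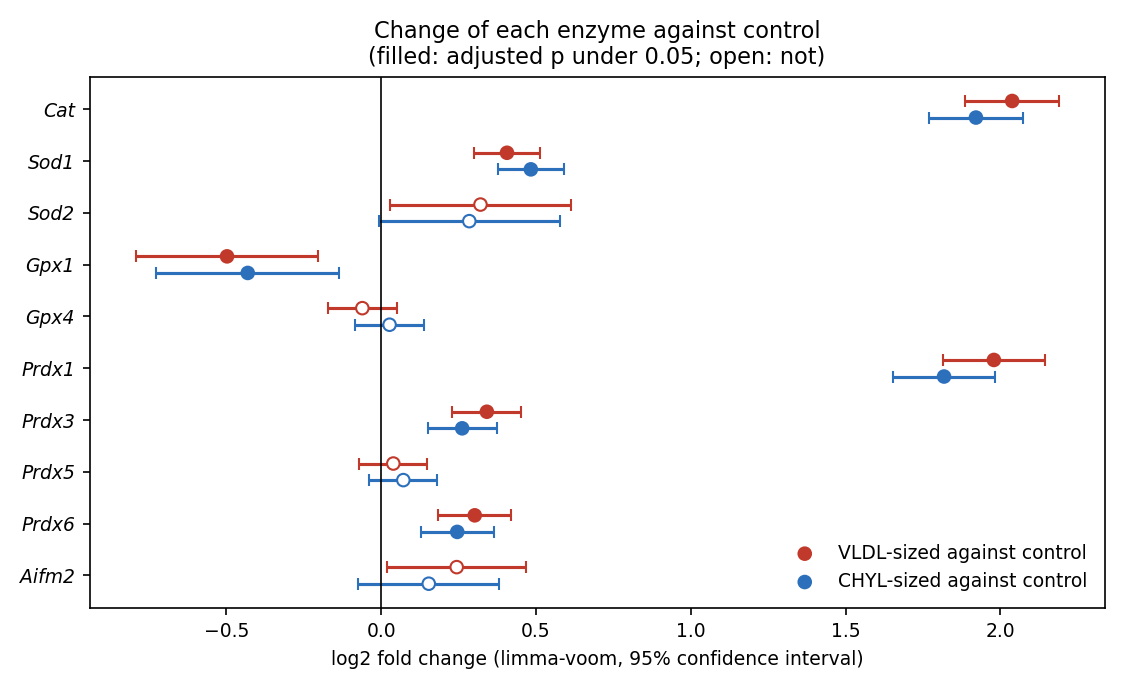
Log2 fold change of each enzyme against control (x axis) with its 95% confidence interval from limma-voom, for VLDL-sized (red) and CHYL-sized (blue) particles; filled points passed the adjusted p threshold of 0.05. *Cat* and *Prdx1* lie between 1.82 and 2.04, *Sod1*, *Prdx3* and *Prdx6* between 0.25 and 0.48, and *Gpx1* at -0.50 and -0.43.

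*Sod1* (ENSMUSG00000022982, chromosome 16 from 90220754 to 90226329, plus strand) encodes the copper-zinc superoxide dismutase of the cytosol. The control libraries held 131, 142 and 142 cpm, the VLDL-sized libraries 181, 181 and 188 cpm and the CHYL-sized libraries 195, 188 and 198 cpm. Treated and control libraries did not overlap, and *Sod1* rose by 0.41 on the log2 scale with VLDL-sized (standard error 0.049, adjusted p = 1.1e-04) and by 0.48 with CHYL-sized particles (standard error 0.049, adjusted p = 6.0e-05), a rise of 32.5% and 39.8%. *Scaf4*, on the opposite strand, overlaps the *Sod1* locus and went from 57.7 to 73.9 cpm after VLDL-sized and to 65.1 cpm after CHYL-sized particles (adjusted p = 0.0022 and 0.0936). Whether the counting used strand is not given in the sources used here, so reads of this pair could be exchanged. *Ccs*, the chaperone that loads copper onto *Sod1*, was at 16.8 cpm in untreated cells and at 19.1 cpm with VLDL-sized particles (log2 fold change 0.19, adjusted p = 0.0592).

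The promoters of *Prdx1*, *Sod1* and *Cat*, which encode enzymes that rose, are printed because antioxidant genes are often regulated through the antioxidant response element, whose core is TGACNNNGC; the AP-1 site TGANTCA was searched as well. Each stretch runs from 250 bases before to 50 bases after the transcript start in RefSeq (GRCm38.p6), 5′ to 3′ on the strand of the gene, with the motif matches on either strand in capitals.
*Prdx1*, chr4:116685349-116685648, plus strand: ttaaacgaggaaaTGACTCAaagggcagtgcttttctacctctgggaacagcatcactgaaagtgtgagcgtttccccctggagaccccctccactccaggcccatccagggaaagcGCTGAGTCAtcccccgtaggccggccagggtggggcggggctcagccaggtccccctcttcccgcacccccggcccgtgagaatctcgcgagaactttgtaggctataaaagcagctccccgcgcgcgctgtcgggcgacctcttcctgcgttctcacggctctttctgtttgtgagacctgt
*Sod1*, chr16:90220512-90220811, plus strand: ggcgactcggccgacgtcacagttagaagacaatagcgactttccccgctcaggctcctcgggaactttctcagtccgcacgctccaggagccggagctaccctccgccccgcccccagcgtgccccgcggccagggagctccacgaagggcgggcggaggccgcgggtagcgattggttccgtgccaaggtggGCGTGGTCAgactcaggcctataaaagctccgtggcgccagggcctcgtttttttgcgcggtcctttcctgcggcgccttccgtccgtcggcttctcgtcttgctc
*Cat*, chr2:103485104-103485403, minus strand: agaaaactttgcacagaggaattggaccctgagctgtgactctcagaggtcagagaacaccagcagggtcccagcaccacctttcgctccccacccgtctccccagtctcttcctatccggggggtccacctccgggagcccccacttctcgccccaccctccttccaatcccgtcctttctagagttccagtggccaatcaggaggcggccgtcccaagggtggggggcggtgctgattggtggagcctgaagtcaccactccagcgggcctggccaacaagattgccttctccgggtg

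The *Prdx1* stretch held the core on the reverse strand, as GCTGAGTCA at bases -133 to -125 from the start. The AP-1 match TGAGTCA at -131 to -125 overlaps it, and a second AP-1 match, TGACTCA, lay at -237 to -231. The *Sod1* stretch held the core as GCGTGGTCA at -56 to -48, and the *Cat* stretch held neither motif. Promoters were found for 9 of the 10 enzymes, *Prdx6* being the exception. These 9 enzymes had 12 promoters, as *Gpx4* has 4. The core occurred in 2 of the 12 and in 12.4% of all 32851 promoters of this length, and the AP-1 site in 1 of the 12 and in 7.81% of all promoters. These matches describe letters and say nothing about binding.

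*Sod2* (ENSMUSG00000006818, chromosome 17 from 13006846 to 13040063, plus strand) encodes the manganese superoxide dismutase of mitochondria. Its level was 123, 117 and 154 cpm in control cells, 145, 150.2 and 197 cpm after VLDL-sized particles and 145, 154 and 178 cpm after CHYL-sized particles. Replicate 3 was the highest library in each group, and its control library lay above 2 libraries of each treated group. *Sod2* did not pass the test with either particle (log2 fold change 0.32, standard error 0.13, adjusted p = 0.0835, and 0.28, standard error 0.13, adjusted p = 0.145). With the replicate number as a block the VLDL-sized value was 0.32 with an adjusted p of 1.2e-04. Without control replicate 3 the values were 0.44 (adjusted p = 0.0224) and 0.41 (adjusted p = 0.0427), and without replicate 3 of all groups they were 0.30 (adjusted p = 2.9e-04) and 0.32 (adjusted p = 2.8e-04). Without VLDL-sized replicate 3 the VLDL-sized value was 0.18 (adjusted p = 0.265), and of the 16 alternatives run 4 called *Sod2* after VLDL-sized and 3 after CHYL-sized particles.

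*Gpx1* (ENSMUSG00000063856, chromosome 9 from 108338903 to 108340343, plus strand) encodes the selenium-containing glutathione peroxidase of the cytosol and mitochondria, and was the only enzyme of the 10 that fell. The control libraries held 467, 463.5 and 593 cpm, the VLDL-sized libraries 330.0, 327 and 423 cpm and the CHYL-sized libraries 328, 367 and 436 cpm. All treated libraries lay below all control libraries, with replicate 3 the highest in each group. *Gpx1* fell by 0.50 on the log2 scale with VLDL-sized particles (standard error 0.13, adjusted p = 0.014) and by 0.43 after CHYL-sized particles (standard error 0.13, adjusted p = 0.0365). The call was lost for VLDL-sized particles without VLDL-sized replicate 1 (-0.44, adjusted p = 0.0555) or 2 (-0.43, adjusted p = 0.0571). For CHYL-sized particles it was lost without control replicate 1 (-0.49, adjusted p = 0.053) or 3 (-0.31, adjusted p = 0.105) and without CHYL-sized replicate 1 (-0.34, adjusted p = 0.127) or 2 (-0.42, adjusted p = 0.0959). Without replicate 3 of all groups both calls held, at -0.50 (adjusted p = 4.0e-06) and -0.42 (adjusted p = 2.9e-05). With the replicate number as a block the VLDL-sized value of *Gpx1* was -0.50 with an adjusted p of 1.05e-06.

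*Gpx4* (ENSMUSG00000075706, chromosome 10 from 80047166 to 80056439, plus strand) is also a selenoprotein. Its libraries held 186, 177 and 187 cpm in control cells, 173, 179.5 and 175 cpm after VLDL-sized particles and 178, 197 and 186 cpm after CHYL-sized particles, and the groups overlapped. The log2 fold change was -0.06 (95% interval -0.17 to 0.05, adjusted p = 0.381) and 0.03 (-0.08 to 0.14, adjusted p = 0.742). When libraries were scaled by their size alone, the VLDL-sized value was -0.15 (adjusted p = 0.0299), a setting that moved the median of all genes to -0.0935 after VLDL-sized and -0.0788 after CHYL-sized particles and turned the CHYL-sized value of *Gpx4* to -0.05. The row of the pseudogene *Gpx4-ps2* held a mean of 1.98 counts per library.

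*Aifm2* (ENSMUSG00000020085, chromosome 10 from 61715263 to 61739260, plus strand) was the least abundant enzyme. It was measured at 13.4, 12.8 and 13.5 cpm in control cells, at 15.9, 13.7 and 17.7 cpm after VLDL-sized particles and at 15.0, 15.5 and 13.7 cpm after CHYL-sized particles. Each treated library lay above every control library, yet neither comparison passed the test (log2 fold change 0.24, adjusted p = 0.0861, and 0.15, adjusted p = 0.311). With the replicate block the VLDL-sized value was 0.25 with an adjusted p of 0.046, and without VLDL-sized replicate 2 it was 0.34 with an adjusted p of 0.0211. Without VLDL-sized replicate 3 it was 0.15 (adjusted p = 0.266), and 2 of 16 alternatives called *Aifm2*.

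The other peroxiredoxins had smaller log2 fold changes than *Prdx1*. *Prdx3* (ENSMUSG00000024997, chromosome 19 from 60864051 to 60874556, minus strand), the mitochondrial enzyme, was at 90.4, 96.5 and 98.8 cpm in control cells, 125, 117 and 119.8 cpm after VLDL-sized particles and 111, 116 and 115 cpm after CHYL-sized particles. It rose by 0.34 on the log2 scale (standard error 0.050, adjusted p = 4.3e-04) and by 0.26 (standard error 0.050, adjusted p = 0.00346). *Prdx6* (ENSMUSG00000026701, chromosome 1 from 161240112 to 161251219, minus strand) encodes a peroxiredoxin that also has phospholipase activity. It was at 123, 127 and 137 cpm in control cells, 154.5, 157.5 and 165 cpm after VLDL-sized particles and 149, 153 and 157 cpm after CHYL-sized particles, and rose by 0.30 (standard error 0.053, adjusted p = 0.0013) and 0.25 (standard error 0.053, adjusted p = 0.00665). For both genes every treated library exceeded every control library.

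*Prdx5* (ENSMUSG00000024953, chromosome 19 from 6906697 to 6910106, minus strand) is found in mitochondria, peroxisomes and cytosol. Its 9 libraries spanned 61.2 to 68.2 cpm and the groups overlapped. The log2 fold change was 0.04 (95% interval -0.07 to 0.15, adjusted p = 0.581) after VLDL-sized and 0.07 (-0.04 to 0.18, adjusted p = 0.328) after CHYL-sized particles, and when libraries were scaled by size alone they were -0.05 and -0.01. *Trmt112* overlaps *Prdx5* on the opposite strand and held 55.4 cpm in untreated cells against 51.6 cpm with VLDL-sized and 54.5 cpm with CHYL-sized particles. *Prdx4*, the peroxiredoxin of the endoplasmic reticulum, was at 45.4 to 49.6 cpm in the control libraries and 45.1 to 50.3 cpm after VLDL-sized particles (adjusted p = 0.974).

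Between the particles, none of the 10 enzymes passed the test (limma-voom without a replicate block, adjusted p from 0.778 to 0.991), and none had an unadjusted p under 0.05. The same was so of all 12637 genes (0% called), of which 813 (6.43%) had an unadjusted p under 0.05, and DESeq2 called 24 genes and none of the enzymes. The largest difference was that of *Prdx1*, 0.16 higher on the log2 scale after VLDL-sized particles (95% interval -0.003 to 0.33, unadjusted p = 0.0542), followed by *Cat* with 0.12 (-0.03 to 0.27). *Sod1* was 0.08 lower after VLDL-sized particles (-0.18 to 0.03) and *Gpx4* 0.09 lower (-0.20 to 0.02). *Prdx3* was the 1 enzyme whose libraries did not overlap between the particles, at 117 to 125 cpm against 111 to 116 cpm, where 11.3% of all genes did not overlap. On the linear scale the interval of *Prdx1* ran from 0.998 to 1.253-fold, so a small difference between the particles is within these data.

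**Figure D3:**
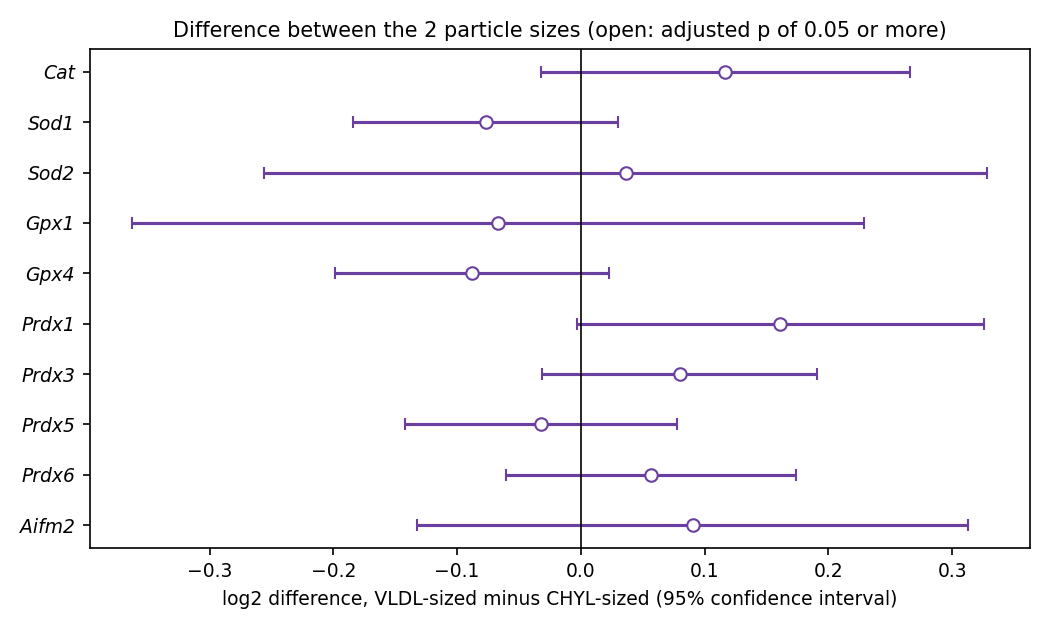
Log2 difference of each enzyme between VLDL-sized and CHYL-sized particles (x axis) with its 95% confidence interval from limma-voom. All 10 intervals cover 0, and that of *Prdx1* runs from -0.003 to 0.33.

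Levels were compared between genes per kilobase of transcript, with the median length of a gene's coding transcripts. In control cells *Gpx1* (645 ± 93.9 cpm per kilobase, SD, n = 3) and *Prdx1* (619 ± 36.3) led and overlapped, followed by *Sod1* (216), *Gpx4* (192), *Prdx5* (82.8), *Prdx6* (77.2), *Cat* (74.0), *Prdx3* (64.5), *Sod2* (22.4) and *Aifm2* (8.96), of which *Prdx5* overlapped *Prdx6* and *Prdx6* overlapped *Cat*. After VLDL-sized particles *Prdx1* (2444 ± 201) led *Gpx1* (457 ± 69.4), and *Cat* (304 ± 27.4) stood beside *Sod1* (286) with overlapping libraries. After CHYL-sized particles *Prdx1* (2185 ± 169) again exceeded *Gpx1* (479), with *Sod1* (302) and *Cat* (280.0) behind. Of the summed level of the 10 enzymes, *Prdx1* made up 31.0% in control, 61.4% after VLDL-sized and 58.5% after CHYL-sized particles, *Gpx1* 32.1%, 11.5% and 12.8%, and *Cat* 3.70%, 7.71% and 7.53%. All 10 enzymes together took 0.246 ± 0.0135% of the counts in control, 0.549 ± 0.0298% after VLDL-sized and 0.512 ± 0.026% after CHYL-sized particles (SD, n = 3).

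**Figure D4:**
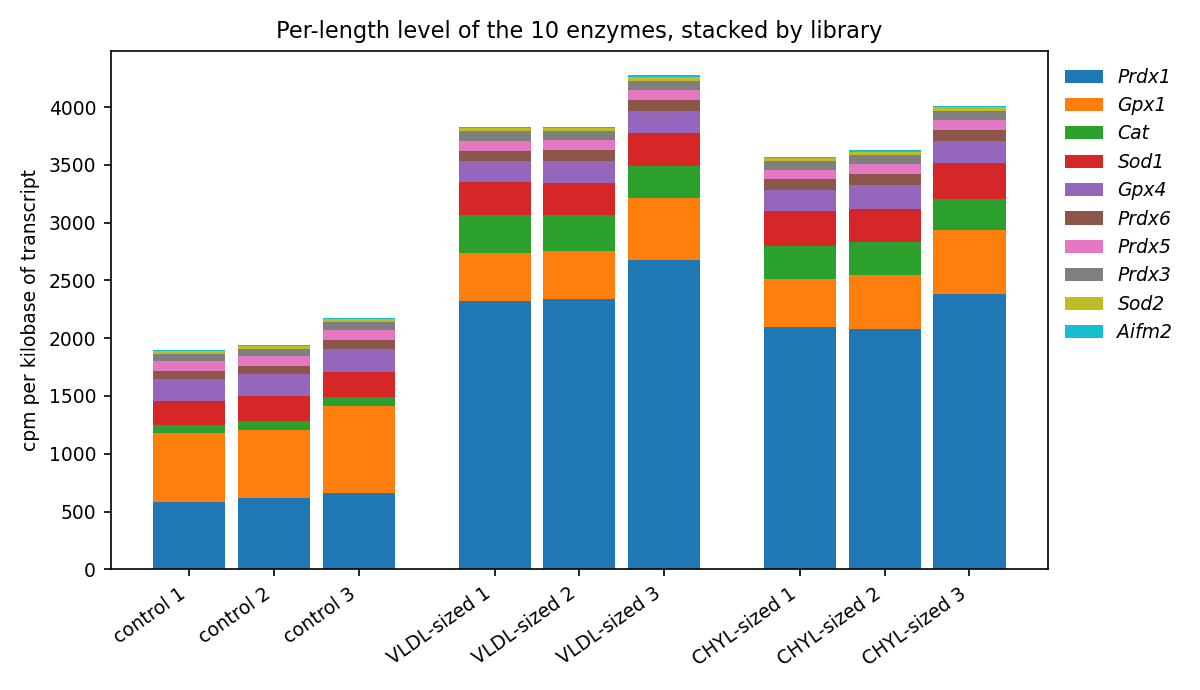
Composition of the 10 enzyme transcripts in each of the 9 libraries, stacked in cpm per kilobase of transcript. The *Prdx1* segment is the largest in every treated library and makes up 61.4% of it after VLDL-sized particles against 31.0% in control.

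Over the 9 libraries, the 5 genes whose log2 cpm was most like that of *Cat*, among 4215 genes with a mean of at least 50 cpm, were *Creg1* (Pearson's r = 0.999), *Zdhhc18*, *Cyb5a*, *Akr1b8* and *Slc48a1* (0.996 each). The libraries fall into control and treated ones, so the likeness mostly reflects the step between the 3 control and the 6 treated libraries. Mean cpm of *Akr1b8*, an aldo-keto reductase, went from 181 in control to 755 after VLDL-sized and 764 after CHYL-sized particles, and that of *Slc48a1*, a haem transporter, from 159 to 650 and 625. Among the enzymes the likeness to *Cat* was 0.989 for *Prdx1*, 0.96 for *Sod1* and -0.803 for *Gpx1*.

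The genes around the enzymes were read from 6 lists, whose counts stand beside 35.6% of all genes called after VLDL-sized particles (17.8% higher, 17.9% lower) and 25.7% after CHYL-sized particles (12.7% higher, 13% lower). Of the relatives of the enzymes, 4 of 13 passed the filter (*Ccs*, *Prdx2*, *Prdx4* and *Aifm1*) and none passed the test with either particle by limma-voom, edgeR or DESeq2, while 1, *Ccs*, had an unadjusted p under 0.05 after VLDL-sized particles. With the replicate block 1 of them rose after VLDL-sized particles, where 6058 of all genes passed in place of 4500. With scaling by library size alone 1 fell after CHYL-sized particles, where 29.8% of all genes called were higher. *Sod3*, *Gpx2*, *Gpx3*, *Gpx5*, *Gpx6*, *Gpx7*, *Gpx8*, *Prdx6b* and *Aifm3* stayed under the filter. *Aifm1*, a mitochondrial oxidoreductase, had a log2 fold change of -0.05 after VLDL-sized particles.

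Of the list of genes around the supply of electrons and glutathione, all 20 were tested. After VLDL-sized particles 11 rose and 2 fell, and after CHYL-sized particles 12 rose and 1 fell (median log2 fold change 0.43 and 0.45). Of all genes, 17.8% and 12.7% rose. The list also holds *Txnip* and the sestrins, which are not suppliers of electrons or glutathione. The genes that fell were *Sesn1* (-1.34 after VLDL-sized and -1.20 after CHYL-sized particles) and, after VLDL-sized particles, *Txnip* (-0.79). *Sesn2* rose with both particles (1.505, adjusted p = 0.00123, and 0.886, adjusted p = 0.0368). Its control libraries spanned 11.1 to 25.4 cpm, and control replicate 3 lay above CHYL-sized replicates 1 and 2 (24.8 and 23.8 cpm). *Gclm* and *Gclc* encode the subunits of glutamate-cysteine ligase, which starts glutathione synthesis. *Gclm* went from 151, 148 and 165 cpm in control to 1338, 1388 and 1393 cpm after VLDL-sized particles (log2 fold change 3.15, adjusted p = 1.7e-10) and to 1316, 1295 and 1400.0 cpm after CHYL-sized particles (3.11). *Gclc* rose by 1.64 (adjusted p = 5.6e-09) and 1.58. *Txnrd1*, the cytosolic thioredoxin reductase that recharges the thioredoxin used by *Prdx1*, was at 249.3, 253.5 and 287 cpm in control cells, 929, 971 and 1049 cpm after VLDL-sized and 956, 928 and 1038 cpm after CHYL-sized particles, and rose by 1.90 (adjusted p = 3.6e-08) and 1.89.

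Of the sources of superoxide and peroxide, 15 of 22 were tested, and 5 rose and 3 fell after VLDL-sized particles and 5 rose and 2 fell after CHYL-sized particles (median 0.02 and 0.06), where 35.6% and 25.7% of all genes changed. With scaling by library size alone, 4 of these sources rose and 5 fell with either particle, where 31.3% and 29.8% of all genes called were higher. After VLDL-sized particles that setting called 4819 of the 12637 genes. *Aox1*, aldehyde oxidase, rose from 0.198 to 2.24 and 2.05 cpm, levels that rest on few counts.

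Of the peroxisome genes, 19 of 20 were tested, and 4 rose and 2 fell after VLDL-sized particles and 3 rose and 2 fell after CHYL-sized particles (median log2 fold change -0.04 after VLDL-sized particles), which is close to the 35.6% and 25.7% called among all genes. *Pex13*, a docking protein for matrix enzymes, rose from 35.4 to 59.9 cpm after VLDL-sized particles (0.76, adjusted p = 1.6e-05). *Abcd2*, a fatty acid transporter of the peroxisomal membrane, fell by 1.20 (adjusted p = 0.00102) after VLDL-sized particles. Of the selenoproteins and the genes that make them, 19 of 23 were tested, with 2 higher and 3 lower after VLDL-sized particles and 2 higher and 1 lower after CHYL-sized particles (median -0.06 and -0.01), no larger a share than the 35.6% and 25.7% of all genes. *Selenon* fell by 0.36 (adjusted p = 2.0e-04) and *Msrb1*, which repairs oxidized methionine, by 0.31 (adjusted p = 0.0252), whereas *Sephs2*, which makes the selenium donor, rose by 0.31 (adjusted p = 0.0376), all after VLDL-sized particles.

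Of the genes of lipid peroxides and ferroptosis, 16 of 17 were tested, and 5 rose and 3 fell with either particle (median -0.14 and -0.12), beside 35.6% and 25.7% of all genes. *Fth1*, the ferritin heavy chain that stores iron, rose from 4665 to 9159 and 8418 cpm (log2 fold change 0.98, adjusted p = 3.4e-06, and 0.85). *Por*, the electron donor of cytochromes P450, rose from 133 to 270.4 and 254 cpm (1.03, adjusted p = 6.1e-06, after VLDL-sized particles). *Nqo1*, a quinone reductase, rose from 0.170 to 5.20 cpm with VLDL-sized particles, so its fold rests on few control counts. With scaling by library size alone, 2 peroxisome genes rose and 6 fell, 0 selenoprotein genes rose and 4 fell, and 5 lipid peroxide genes rose and 7 fell after VLDL-sized particles. Of all 12637 genes, 4819 passed with this setting and only 1507 of these were higher, with the median of all genes at -0.0935. After CHYL-sized particles these list counts were 1 and 2, 0 and 2, and 5 and 6, where 29.8% of all genes called were higher. With the replicate number as a block, the counts after VLDL-sized particles were 14 higher and 2 lower for the list around the supply of electrons and glutathione. They were 6 and 5 for the sources, 6 and 6 for the peroxisome genes, 4 and 5 for the selenoprotein genes and 6 and 6 for the lipid peroxide genes. The block also raised the number of all genes called, to 6058 of 12637 (3046 higher) in place of 4500 (2244 higher). None of the genes of the 6 lists passed the limma-voom test between the particles.

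**Figure D5:**
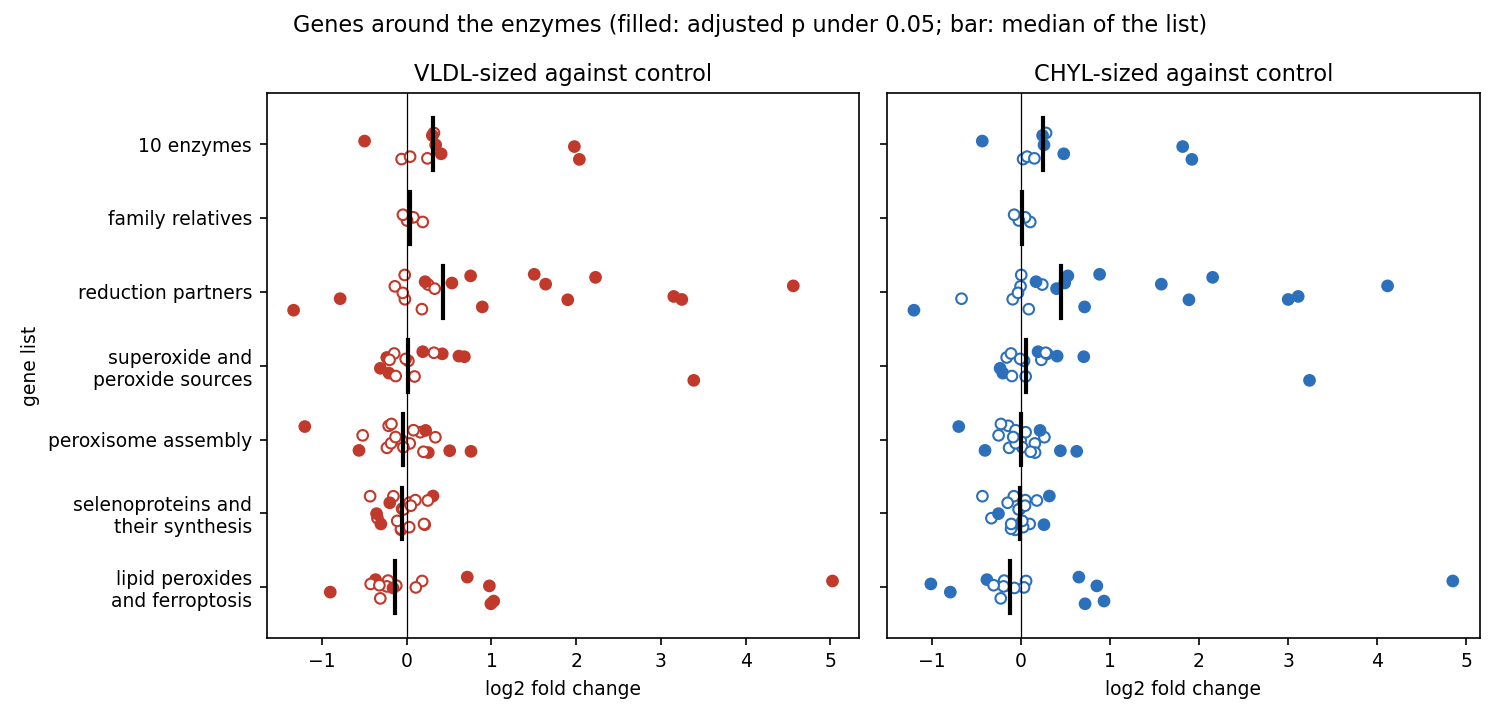
Log2 fold change against control (x axis) of every tested gene of the 6 lists (rows) for each particle (panels); filled points passed the adjusted p threshold of 0.05. The bar is the median of a list and the first row holds the 10 enzymes. Several reduction partners lie far to the right, among them *Gclm* at 3.15 after VLDL-sized particles, the far point of the lipid peroxide list is *Nqo1* at 5.03, and the 4 relatives lie near 0.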

How the data were processed

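Gene expression was measured by RNAseq in 9 RAW264.7 libraries, 3 per group, sequenced as paired ends on BGISEQ-500. The authors quantified transcripts with Salmon 0.14.1 against GENCODE transcripts of GRCm38.p6 and deposited an estimated count per gene, summarized with tximport. Per the methods these counts were scaled for length and depth, yet 58.3% of the deposited values above 10 were exactly whole (no tolerance), and no scaling was assumed. All columns were assigned to a library by name.

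Of the 54432 genes, the 12637 with over 10 counts in 3 or more libraries were normalized with TMM (edgeR 4.0.16) and fitted with voom and limma 3.58.1 in R 4.3.3, in a model of all 9 libraries without a replicate block, with Benjamini-Hochberg adjustment over these genes. This follows the study's methods apart from the scaling. Counts were rounded for edgeR's quasi-likelihood test and DESeq2 1.42.0. Cpm values are scaled with TMM, means and SDs are over 3 libraries, and intervals cover 95%. Coordinates and lengths came from the GENCODE release before the authors' and promoters from RefSeq. The likeness to *Cat* used log2 cpm with a prior count of 0.5. Depth was 22393893 to 22856792 counts per library.

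Named are the 10 enzymes, their relatives that passed the filter and the 5 genes most like *Cat*. Of each list other than the relatives, the 3 genes with the smallest adjusted p after VLDL-sized particles are named. Genes overlapping an enzyme, cell markers, *Txnip* and the sestrins are named beside the values they touch. Some genes that this rule selects are not reported here. The enzymes and lists were chosen with earlier results of these data known. Control and VLDL-sized libraries with the same number shared deviations from their group means. The correlation across genes was 0.14, 0.13 and 0.29 for replicates 1, 2 and 3 (log2 cpm with a prior count of 2), all over 0.1. VLDL-sized replicate 2 with control replicate 1 gave 0.12, and VLDL-sized replicate 1 with control replicate 2 gave 0.01. These correlations therefore do not establish a pairing of replicates 1 and 2. Whether a number stands for 1 experiment is not given in the sources used here. Scripts were tested on simulated data. Alternatives were edgeR, DESeq2, limma-trend, library size only, upper-quartile normalization, other filters, only the groups compared, blocking on the replicate number and leaving out each replicate.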

Additional observations from a re-analysis of the deposited data

How the results depend on the processing

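*Cat*, *Sod1*, *Prdx1*, *Prdx3* and *Prdx6* kept their calls against control under all 16 alternatives with either particle, and no call reversed. The number of enzymes called was 5 to 7 after VLDL-sized and 5 to 6 after CHYL-sized particles when a library was left out, with *Gpx1*, *Sod2* and *Aifm2* as the enzymes that moved. After VLDL-sized particles the same fits called 3488 to 4316 of all genes, in place of 4500. With the replicate block, 8 enzymes passed after VLDL-sized particles, where 6058 genes passed in place of 4500. After CHYL-sized particles 7 enzymes passed, *Sod2* being added (0.28, adjusted p = 4.6e-04), and 4949 genes passed in place of 3249. Between the particles the block called 1 enzyme, *Prdx1* (0.16 higher after VLDL-sized particles, adjusted p = 0.0419), and 147 genes in place of 0, 3 of them in the 6 lists. After CHYL-sized particles the block called 3 selenoprotein genes higher and 4 lower (2 and 1 without it) and 5 and 6 of the lipid peroxide genes (5 and 3 without it). Same-numbered libraries correlated by 0.12, 0.07 and 0.34 between CHYL-sized and control and by 0.03, 0.12 and 0.36 between the particles, so these numbers were not taken as pairs; with a prior count of 0.5 in place of 2 the VLDL-sized correlations were 0.09, 0.10 and 0.22. Between the particles DESeq2 called 24 genes, the libraries without replicate 3 of all groups gave 232, and leaving out a single library gave 0 to 1. After VLDL-sized particles DESeq2 also called *Sod2* (0.32, adjusted p = 0.047). The block changed no other call of an enzyme than those of *Sod2*, *Aifm2* and *Prdx1*. Library size as the only normalization left 31.3% of the called genes higher after VLDL-sized and 29.8% after CHYL-sized particles. Depth limits *Aifm2* most, with 301 to 390 counts per library.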
